A study of Mus musculus with 5 samples.

Results

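The cells described here were S1-S2 proximal tubule cells, the early and middle stretch of the proximal tubule, taken from 10x Genomics single-cell RNA libraries of mouse kidney. They were chosen by their own RNA, from unique molecular identifiers (UMIs, each standing for 1 captured molecule). A barcode was a member if it held at least 3 UMIs, and at least 15 per 10000 of its UMIs, of Slc34a1, Slc5a12, Slc5a2 and Lrp2 together. Ptprc, Havcr1 and Slc7a13 were each limited to 1 UMI, and Slc12a1, Slc12a3 and Aqp2 each to 2 UMIs. These limits were meant to set aside leukocytes, injured cells, S3 cells and later tubule segments. The gate found 4275 members among the 60043 barcodes kept for having 200 genes or more and no more than 30% of their UMIs from mitochondrial genes, of 72896 barcodes in all. All 5 libraries came from kidneys of Wild-Type mice, described in the study as male C57BL/6 of 8 to 10 weeks. The 2 AKI (acute kidney injury) libraries were taken after 2 weeks of aristolochic acid I (AAI) injections at 3 mg/kg, given every 3 days. The 2 CKD (chronic kidney disease) libraries had the same 2 weeks of AAI and then 2 weeks without it. The single control library is labelled only as control. The study's methods give control mice of this model vehicle on that schedule, and its results call the sequenced control a baseline. The labels do not say whether the libraries of a group came from separate mice, so p-values measure only the spread between these libraries.

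Proximal tubule cells reclaim most of the filtered glucose, phosphate, amino acids, bicarbonate and protein, and they run on fatty acid oxidation. They are also the cells that AAI, a plant toxin whose metabolites form DNA adducts, is known to damage, because organic anion transporters on their basal side carry it in. Injured proximal tubule cells are known to switch on Havcr1 (KIM-1), to show p53 target genes after DNA damage, and to produce secreted proteins such as osteopontin.

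The members numbered 767 in the control, 417 and 419 in the AKI libraries, and 2412 and 260 in CKD. They were 8.37% of kept barcodes in the control (95% exact binomial interval, 7.81 to 8.95). In AKI 1 and AKI 2 they were 3.72% (3.38 to 4.09) and 3.86% (3.51 to 4.24). In CKD 1 they were 12.5% (12.03 to 12.96) and in CKD 2 2.74% (2.42 to 3.08). The CKD libraries lay on either side of both AKI libraries and of the control, so the mean difference of 3.82 percentage points between CKD and AKI was smaller than the spread between the CKD libraries. Without CKD 1 the difference was -1.06 points, and 2 libraries against 2 allow no exact permutation p below 0.33. These intervals cover counting error only, and a share depends on how many leukocytes a library holds. Among barcodes with at most 1 Ptprc UMI the share was 10.6% in the control, 8.65% and 9.51% in AKI, and 18.7% and 10.7% in the CKD libraries. The limit on mitochondrial UMIs also took out many cells of this kind, since between 29.0% (CKD 1) and 62.8% (control) of barcodes with the same marker pattern lay above it.

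**Figure D1:**
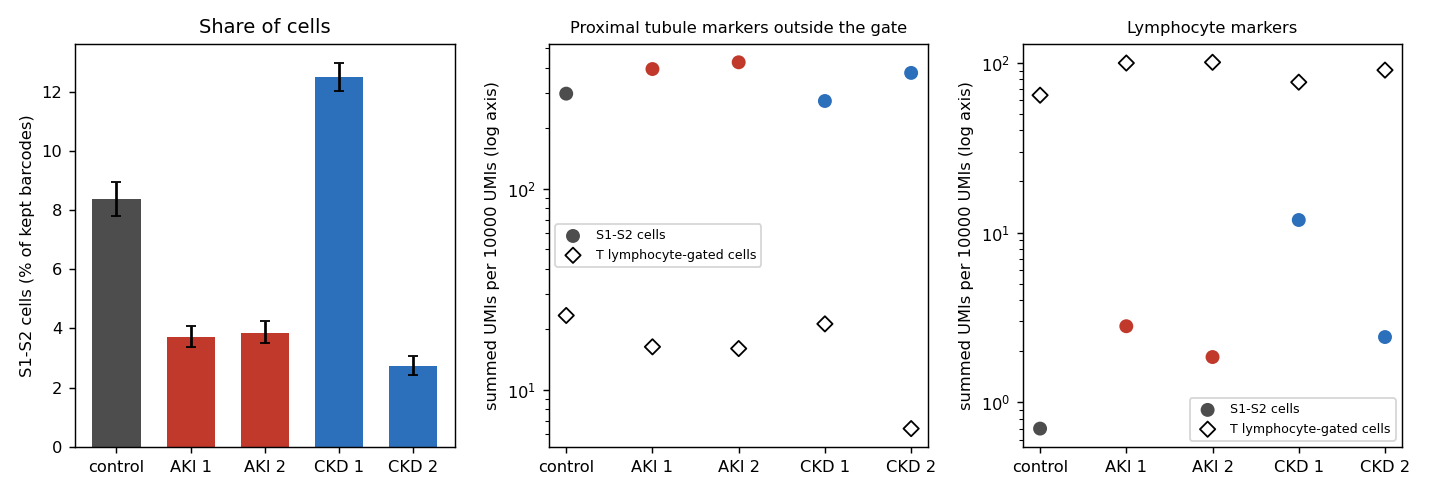
Left, S1-S2 cells as a percentage of kept barcodes in each library, with 95% exact binomial intervals. Middle and right, summed UMIs per 10000 UMIs (log axis) of proximal tubule markers outside the gate and of lymphocyte markers, in S1-S2 cells (filled circles) and T lymphocyte-gated cells (open diamonds) of the same library. CKD 1 holds the largest share of members (12.5%), and its members hold the most lymphocyte RNA (11.9 per 10000).

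CKD 1 stood apart from the rest. Its shallowest member had 1230 UMIs, against 507 to 614 in the other libraries, and the median per member was 2831 UMIs. The control had a median of 3397, the AKI libraries 2689 and 5932, and CKD 2 4672. Its members held 11.9 lymphocyte marker UMIs per 10000, against 0.701 in the control, 2.81 and 1.85 in AKI and 2.43 in CKD 2. Its members with fewer than 2000 UMIs held 30.6 per 10000, and those with more held 9.90. Between 2 and 24 members of a library carried a barcode that also occurred among cells of another library. Counts of genes are therefore given with and without single libraries where that mattered. Where 5 values follow one another, they are in the order control, AKI 1, AKI 2, CKD 1 and CKD 2. A stricter marker gate, of at least 6 UMIs and 30 per 10000, is given beside them (551, 244, 265, 1160 and 199 cells).

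Markers that the gate did not use fitted the label. A list of 18 further proximal tubule genes summed to 297 UMIs per 10000 in the control members, 394 and 426 in AKI, 273 in CKD 1 and 377 in CKD 2. Gpx3, a secreted glutathione peroxidase, made up 161 of these in the control, 295 and 325 in AKI, and 188 and 261 in CKD. The other 17 genes summed to 136 in the control, 99.8 and 101 in AKI, and 85.2 and 116 in CKD, so without Gpx3 the control was highest. T lymphocyte-gated cells of the same libraries, which should not express these genes, held 6.39 to 23.4 per 10000, and this level is taken here as the background from RNA free in the suspension. Just inside the gate, CKD 1 had 617 members with 123 of these UMIs per 10000, and 515 cells just outside it had 95.2. In the control, 111 members just inside had 214 and 191 cells just outside had 189. No cell passed an S3 gate built on Slc7a13 (0 of 60043 kept barcodes, which allows a share of up to 0.005%), so S1-S2 cells could not be set against S3 cells. The S3 marker list summed to 2.77 to 5.13 UMIs per 10000 in the members, and to 4.30 to 5.54 in the thick ascending limb cells described below. Whether the limit on Slc7a13 kept S3 cells out of the members was therefore not shown.

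The 4 genes of the gate are given as a description, since they chose the cells. Slc34a1, the sodium-phosphate cotransporter of the brush border, made up most of the marker signal, at 34.9 UMIs per 10000 in the control, 32.3 and 30.9 in AKI, and 30.1 and 38.0 in CKD. Slc5a2, the high-capacity glucose cotransporter SGLT2, was at 7.12 in the control, 6.85 and 7.13 in AKI, and 6.55 and 7.84 in CKD. Lrp2, the endocytic receptor megalin, was at 8.83 in the control against 4.36 and 4.22 in AKI, and 4.40 and 5.58 in CKD. Slc5a12, a lactate cotransporter, was at 4.76, 3.75, 3.30, 2.54 and 4.38. Lrp2 and Slc5a12 were both lower in all 4 libraries of AAI-treated mice than in the control, whereas the values for Slc34a1 and Slc5a2 in the control lay within the range of the others. The gate set a minimum for the 4 genes together, so these differences are not a result. As background, 46.9% of genes tested were lower in both AKI libraries than in the control, and 43.2% in both CKD libraries.

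AKI was first set against the control, to ask what the cells that kept their transport markers looked like at the end of the AAI course. UMIs were summed over the members of each library and tested with edgeR (quasi-likelihood test), the p-values being adjusted by the Benjamini-Hochberg method over 11833 genes. In AKI, 30 genes rose (0.254% of those tested) and 8 fell (0.0676%) at an adjusted p under 0.05, with adjusted p between 0.0329 and 0.0499. With 1 control library, the test assumes that the control varies like the AKI and CKD libraries. The control matrix was also deposited in another format than the other 4, so a difference in processing and the effect of AAI cannot be told apart in any comparison with the control. As background, 33.9% of all genes tested were higher in both AKI libraries than in the control, and 46.9% were lower in both. With the stricter marker gate, all 38 genes (0.321%) were called again in the same direction, among 660 genes (6.00% of 11009 tested, 321 higher, 2.92%, and 339 lower, 3.08%). With DESeq2's size factors 23 of the 38 were called and with a limit of 15% mitochondrial UMIs 14 were, all 38 in the same direction. Without AKI 1 or without AKI 2 no gene was called, each group of 1 library then being assumed to vary like the rest, and without CKD 1 or CKD 2, which only supply the spread here, 1824 and 2002 genes were.

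Spp1, which encodes osteopontin, was the most abundant gene that rose. Its level was 12.2 UMIs per 10000 in the control, 150 and 231 in the AKI libraries, and 110 and 81.5 in CKD. Every library of an AAI-treated mouse was well above the control, and AKI was highest. The log2 fold change in AKI was 4.05 ± 0.45 (SE, 2 libraries against 1, adjusted p = 0.039, edgeR's quasi-likelihood test). T lymphocyte-gated cells held 4.81 to 22.1 Spp1 UMIs per 10000, far below the AKI members. Genes named by the rule given below, such as Spp1, had to show no overlap between the groups compared. They also had to reach 2 times the T lymphocyte-gated level, so for such genes neither is a separate result. Of 35 tested genes of tubular injury and repair, Spp1 was the only one called, and the median log2 fold change of the list was 0.74 against 0.003 over all genes. The injury genes Lcn2, which encodes a secreted iron carrier, and Vcam1, an adhesion molecule, were low in the members. Lcn2 was at 0.153 and 0.127 in AKI, below the 1.85 and 0.852 of T lymphocyte-gated cells. Vcam1 was at 0.803 and 0.581, near their 0.420 and 0.614. The stricter gate called 14 of 33 genes of the list higher in AKI and none lower.

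The fibrinogen genes Fgg and Fga rose in AKI. Fgg, the fibrinogen gamma chain, was at 0.0930 UMIs per 10000 in the control, 3.02 and 4.44 in the AKI libraries, and 1.83 and 2.69 in CKD. Its log2 fold change in AKI, 5.41 ± 0.49 (edgeR adjusted p = 0.0349), was the largest rise of the genes named by the rule. Fga, the fibrinogen alpha chain, went from 0.102 to 2.16 and 3.15, with 1.25 and 1.65 in CKD (AKI log2 fold change 4.79 ± 0.44). Both were at most 0.159 in T lymphocyte-gated cells.

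The complement genes Cfi and C4b also rose. Cfi, the protease that cuts activated complement, was at 0.141 in the control, 1.75 and 2.34 in AKI, and 0.997 and 1.07 in CKD, a log2 fold change in AKI of 3.94 ± 0.34 (edgeR adjusted p = 0.0329). C4b, of the classical pathway, was at 0.0411, 0.705, 0.679, 0.302 and 0.366 (4.14 ± 0.31). C3, the central complement protein, was at 1.87 in the control, 5.56 and 8.19 in AKI, and 1.45 and 1.45 in CKD. Its AKI difference of 1.97 ± 0.32 did not pass (edgeR adjusted p = 0.0758), although both AKI libraries were above the other 3. Of 11 tested genes of complement and acute phase, 4 rose in AKI (C4b, Cfi, Fga and Fgg) and none fell, with a median log2 fold change of 2.55. The stricter gate called 8 of 10.

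Pigr, the receptor that carries immunoglobulin A across epithelia, was at 0.0498 in the control, 1.34 and 1.74 in AKI and 0.443 and 0.618 in CKD (AKI log2 fold change 5.03 ± 0.42, edgeR adjusted p = 0.0329). Serpina10, an inhibitor of coagulation factor X, was at 0.0541, 0.685, 1.15, 0.332 and 0.214 (4.17 ± 0.52). Agt, which encodes angiotensinogen, was at 0.212, 0.966, 1.18, 0.668 and 0.589 (2.42 ± 0.27). In all 3 genes the AKI libraries were highest and the CKD libraries lay between AKI and the control.

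**Figure D2:**
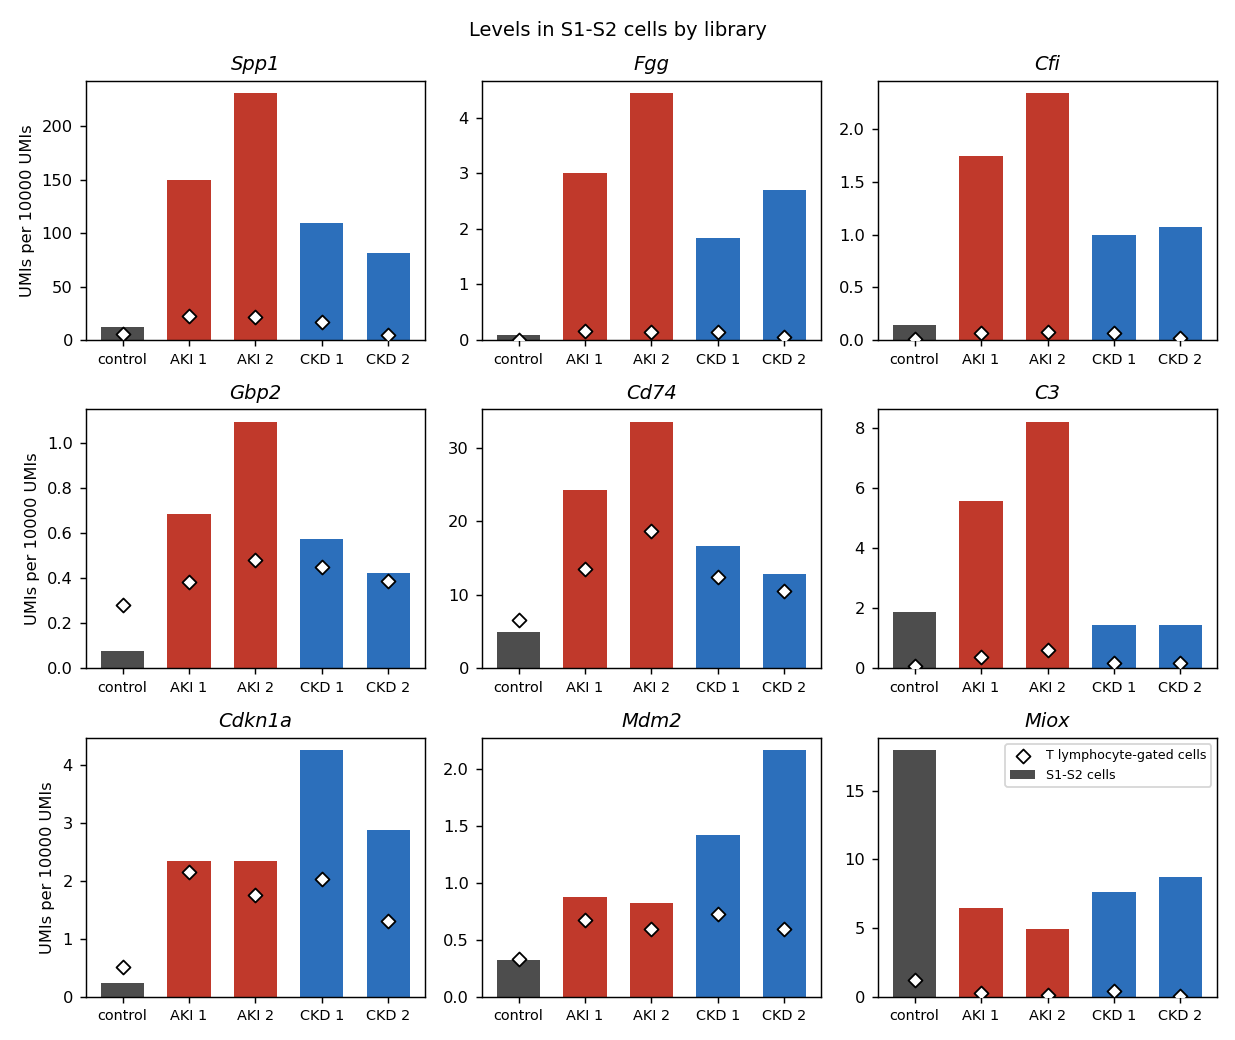
Levels of 9 genes in S1-S2 cells (bars, UMIs per 10000 UMIs) and in T lymphocyte-gated cells (open diamonds) of each library. Spp1, Fgg, Cfi and C3 stand clear of the T lymphocyte-gated level in AKI, Cd74 and Gbp2 less so, and Cdkn1a and Mdm2 are highest in CKD.

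Interferon-inducible GTPases, which attack intracellular pathogens, and antigen presentation genes were also among those that rose. Gbp2, a guanylate-binding protein, was at 0.0779 in the control, 0.688 and 1.09 in the AKI libraries, and 0.576 and 0.425 in CKD (AKI log2 fold change 3.60 ± 0.44, edgeR adjusted p = 0.0479). Gbp6, of the same family, was at 0.0606, 0.713, 1.19, 0.609 and 0.706 (4.06 ± 0.46). Irgm1, an immunity-related GTPase, was at 0.223, 1.03, 1.30, 0.853 and 0.980 (2.47 ± 0.29). The control was lowest in all 3 genes, below CKD as well as AKI. In T lymphocyte-gated cells Gbp2 was at 0.281 in the control and 0.386 to 0.481 elsewhere, so its AKI level was above theirs and its control level below. Of 23 tested genes of the interferon response, 3 rose in AKI (Irgm1, Gbp2 and Irf1) and none fell. The list's median log2 fold change was 1.28, and 9 of 22 were called with the stricter gate. Irf1, an interferon-induced transcription factor, was at 1.58 and 1.21 in AKI, close to the 1.27 and 1.24 of T lymphocyte-gated cells.

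MHC class II genes load and carry peptides for CD4+ T cells. All 7 tested genes had a positive log2 fold change, with a median of 2.46, and 2 were called (H2-DMb1 and H2-DMa). H2-DMb1, a chain of the chaperone that loads peptides on class II molecules, was at 0.350 in the control, 1.63 and 2.00 in AKI, and 1.13 and 1.07 in CKD (AKI log2 fold change 2.46 ± 0.27, edgeR adjusted p = 0.039). H2-DMb2, its close paralog outside the list, was at 0.128, 0.869, 1.27, 0.393 and 0.383 (3.15 ± 0.35). The 2 paralogs share much sequence, so how reads were divided between them is uncertain. Cd74, the invariant chain of class II molecules, was at 4.98 in the control, 24.3 and 33.6 in AKI, and 16.6 and 12.9 in CKD. Its AKI difference of 2.63 ± 0.35 lay just above the threshold (edgeR adjusted p = 0.0504) and passed with the stricter gate (2.75 ± 0.30, adjusted p = 0.000903). T lymphocyte-gated cells held 6.61 Cd74 UMIs per 10000 in the control, 13.5 and 18.7 in AKI, and 12.5 and 10.5 in CKD, so their level was higher in the same libraries. Their gate did not exclude macrophage RNA. How much of their Cd74 was free RNA, and the part of free RNA in the members, was not tested. The macrophage marker list, most of it Cd74, summed to 26.8 and 37.3 in AKI members against 6.57 in the control. The 10 tested markers of that list had a median AKI log2 fold change of 0.83, with 9 above 0 and none called. C1qa, a macrophage complement gene, was at 0.386 and 0.534 in AKI members, below the 1.90 and 2.95 of T lymphocyte-gated cells. The part of macrophage RNA in the class II genes was not tested. All 7 class II genes were called higher with the stricter gate.

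MHC class I genes gave 1 call of 15 tested, with a median log2 fold change of 1.83. H2-K1, a class I heavy chain, was at 3.38 in the control, 13.0 and 16.7 in AKI, and 8.18 and 7.51 in CKD (AKI 2.22 ± 0.29, edgeR adjusted p = 0.0499). T lymphocyte-gated cells held more, 14.2 to 19.4, in every library. B2m, the class I light chain, was at 4.45 against 14.5 and 17.6 in AKI and did not pass (1.93 ± 0.27, adjusted p = 0.0542). The stricter gate called 14 of the 15.

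The 250 bases before the start site of 4 of these genes are shown to let their promoters be read beside their levels. They are from RefSeq on build GRCm38.p6, 5′ to 3′ on the gene's strand, and the study's own processing notes name GRCm39. Capitals mark the core of the interferon-stimulated response element, 2 copies of GAAA with any 2 bases between them on either strand, and the CCAAT box (CCAAT or its reverse complement ATTGG). Gbp2 is at chr3:142620413-142620662 (plus strand), Irgm1 at chr11:48871421-48871670 (minus), H2-DMb1 at chr17:34152941-34153190 (plus) and H2-DMb2 at chr17:34144999-34145248 (plus).

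Gbp2: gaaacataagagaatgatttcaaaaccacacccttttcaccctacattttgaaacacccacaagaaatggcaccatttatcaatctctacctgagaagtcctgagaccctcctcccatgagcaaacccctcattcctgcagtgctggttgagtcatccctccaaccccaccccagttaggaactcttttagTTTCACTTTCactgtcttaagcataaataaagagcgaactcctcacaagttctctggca
Irgm1: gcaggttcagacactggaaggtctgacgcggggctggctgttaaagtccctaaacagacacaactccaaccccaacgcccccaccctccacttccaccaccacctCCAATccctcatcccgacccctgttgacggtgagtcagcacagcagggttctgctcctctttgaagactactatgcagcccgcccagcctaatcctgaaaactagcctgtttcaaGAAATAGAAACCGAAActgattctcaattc
H2-DMb1: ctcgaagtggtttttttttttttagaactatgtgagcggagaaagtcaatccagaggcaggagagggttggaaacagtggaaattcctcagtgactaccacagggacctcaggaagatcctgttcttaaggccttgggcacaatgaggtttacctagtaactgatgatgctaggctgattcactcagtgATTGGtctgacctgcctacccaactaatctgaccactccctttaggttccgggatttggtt
H2-DMb2: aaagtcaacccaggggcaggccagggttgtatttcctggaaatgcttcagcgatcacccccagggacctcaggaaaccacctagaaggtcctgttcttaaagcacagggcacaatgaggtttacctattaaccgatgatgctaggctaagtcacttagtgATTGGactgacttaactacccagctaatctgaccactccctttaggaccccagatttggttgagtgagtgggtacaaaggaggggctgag

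Counted from the start site, the interferon-stimulated letters began at -59 in Gbp2, and at -30 and -24 in Irgm1, where the 2 matches overlap. The class II chaperone genes had none in this window, but each had a CCAAT box, at -61 in H2-DMb1 and at -90 in H2-DMb2. Irgm1 also had 1, at -145. Among 32851 windows of the same length, 978 (2.98%) held the interferon-stimulated letters and 11120 (33.8%) a CCAAT box. A match is a description of the letters only.

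The p53 response genes Cdkn1a, Phlda3 and Ccng1 rose in AKI. Cdkn1a, the cell cycle inhibitor p21, was at 0.234 in the control, 2.35 and 2.34 in the AKI libraries, and 4.25 and 2.88 in CKD. The control was lowest and the CKD libraries highest, with no overlap, and the log2 fold change in AKI was 3.41 ± 0.33 (edgeR adjusted p = 0.0389). T lymphocyte-gated cells held 0.515 in the control, 2.15 and 1.75 in AKI, and 2.04 and 1.31 in CKD, so the AKI members were near them, and the part of free RNA was not tested. Phlda3, an inhibitor of Akt signalling, was at 0.0433, 0.596, 0.381, 0.838 and 0.719 (AKI 3.56 ± 0.38). Ccng1, which encodes cyclin G1, was at 0.554, 1.87, 2.07, 2.71 and 3.06 (1.91 ± 0.25), against 0.508 to 0.665 in T lymphocyte-gated cells. Of 35 tested p53 response genes these 3 rose and none fell, with a median log2 fold change of 1.01. With the stricter gate 14 of 34 rose and 1 (Sesn1) fell. Ephx1, an epoxide hydrolase outside the list, was at 0.0995, 0.567, 0.622, 0.919 and 0.975 (AKI 2.66 ± 0.26, edgeR adjusted p = 0.0389).

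**Figure D3:**
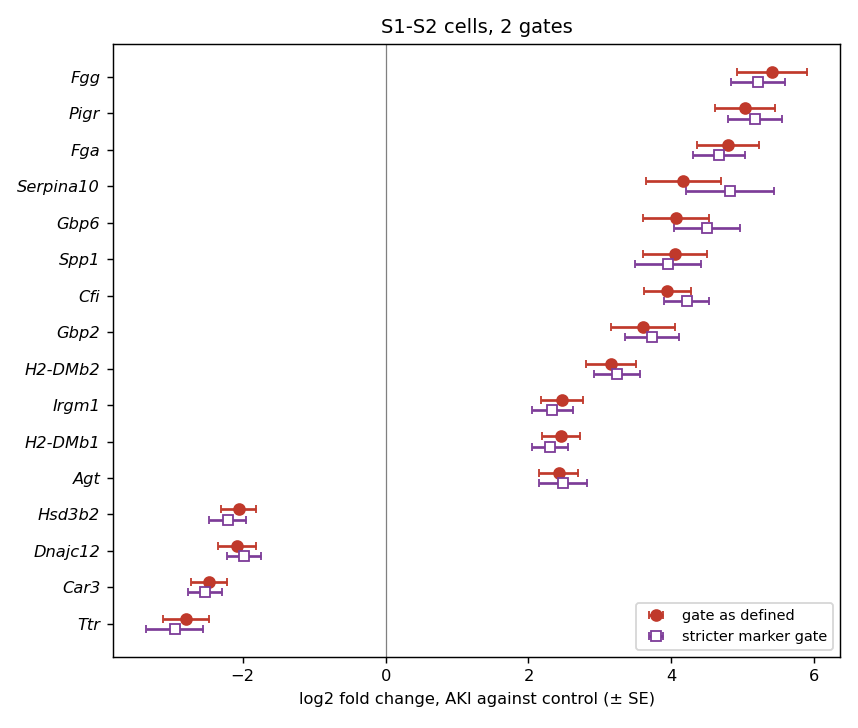
Log2 fold change ± SE of AKI against control for the 16 genes named by the rule, in members of the gate as defined (filled circles) and of the stricter marker gate (open squares). The 2 gates give each gene the same direction, from 5.41 for Fgg to -2.79 for Ttr with the gate as defined.

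Genes that fell in AKI included enzymes and transporters. Ttr, which encodes the thyroxine carrier transthyretin, was at 1.81 in the control, 0.235 and 0.258 in AKI, and 0.542 and 0.294 in CKD (AKI log2 fold change -2.79 ± 0.33, edgeR adjusted p = 0.0433). Car3, a cytosolic carbonic anhydrase, was at 1.30, 0.187, 0.254, 0.645 and 0.580 (-2.47 ± 0.25). Hsd3b2, a steroid dehydrogenase, was at 1.04, 0.276, 0.201, 0.310 and 0.248 (-2.06 ± 0.25). The CKD libraries were also below the control in these 3 genes. Dnajc12, a co-chaperone, was at 1.70, 0.463, 0.307, 0.593 and 0.727 (-2.08 ± 0.27). Inmt, a methyltransferase, was at 0.857 against 0.130 and 0.0743 in AKI (-3.01 ± 0.32). Slc22a28 and Slc22a30, members of the organic anion transporter family whose near-identical copies make the split of reads uncertain, fell by 3.20 and 3.26 on the log2 scale. Egf was also called lower, but T lymphocyte-gated cells of the control held 7.51 UMIs per 10000 of it against 2.46 in the control members.

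Kap, the androgen-regulated kidney protein of male mice, differed widely between libraries. It was at 9.60 UMIs per 10000 in the control, 0.0256 and 0.00782 in the AKI libraries, and 0.0336 and 0.921 in CKD. The control was highest and CKD 2 next, and the AKI difference did not pass (edgeR adjusted p = 0.105). With the stricter gate Kap fell by 9.76 ± 0.54 on the log2 scale in AKI and by 7.76 ± 0.46 in CKD. Of 8 tested androgen-linked genes, 1 (Slc22a30) fell in AKI and none rose. Miox, the first enzyme of inositol breakdown, was at 17.9, 6.47, 4.96, 7.65 and 8.70, lower in AKI than in the control by 1.58 ± 0.23, which did not pass (edgeR adjusted p = 0.0614). Cyp4b1, a cytochrome P450 of the proximal tubule, was at 3.45, 1.20, 0.743, 0.964 and 1.40 (-1.76 ± 0.33, edgeR adjusted p = 0.0998). Both passed with the stricter gate.

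Transport and metabolic genes that define these cells gave no call in AKI with the gate as defined. The gate asked for the 4 marker genes and limited Havcr1, so cells that lost these markers were left out before the test. What follows therefore describes only cells that kept the markers, and does not show whether AAI spared transport in the proximal tubule. None of 37 tested genes of early proximal solute transport was called in AKI, nor any of 18 of endocytosis by megalin and cubilin, 14 of gluconeogenesis and ammonium production or 29 of fatty acid oxidation. The medians of these lists were log2 fold changes of 0.37, 0.24, 0.15 and -0.07. With the stricter gate 3 of 37 transport genes were called higher in AKI (Slc13a1, Slc9a3r1 and Slc38a3) and none lower, and 3 were higher in CKD (Slc13a1, Slc13a3 and Slc38a3). Slc38a3, a glutamine transporter, was then at 0 in the control, 0.162 and 0.0892 in AKI, and 0.124 and 0.209 in CKD. That gate called no endocytosis gene and 1 of gluconeogenesis (G6pc, lower). Of 29 fatty acid oxidation genes it called 3 higher in AKI (Cyp4a14, Cyp4a10 and Pdk4) and 2 lower (Acsl1 and Cyp4b1). Acsl1, which activates long-chain fatty acids, fell by 1.41 ± 0.21 (edgeR adjusted p = 0.00371). Slc4a4, which exports bicarbonate on the basal side, was at 11.3 in the control, 15.3 and 17.6 in AKI, and 10.7 and 13.0 in CKD. Slc13a1, the sulfate cotransporter, was at 3.54, 8.84, 12.5, 7.87 and 8.73 (AKI 1.68 ± 0.31, edgeR adjusted p = 0.1). It passed with the stricter gate in AKI (1.58 ± 0.29, edgeR adjusted p = 0.0107) and in CKD (1.26 ± 0.28, adjusted p = 0.0377). Slc6a19, the main neutral amino acid transporter, was at 2.91, 2.07, 1.73, 1.38 and 2.68, with AKI and CKD overlapping. Cubn, the partner of megalin, was at 1.34, 0.882, 0.800, 0.907 and 1.37.

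Among metabolic genes, Fbp1, an enzyme of gluconeogenesis, was at 7.29 in the control, 6.43 and 6.64 in AKI, and 5.48 and 7.07 in CKD. Pck1, its first committed enzyme, was at 11.3, 6.55, 7.74, 7.09 and 12.4. G6pc, which releases free glucose, was at 4.28 in the control and between 1.23 and 1.90 in the other 4 libraries (AKI -1.20 ± 0.28, edgeR adjusted p = 0.155). It fell with the stricter gate (-1.32 ± 0.21, adjusted p = 0.00549). Cpt1a, which admits fatty acids to mitochondria, was at 0.880, 0.820, 1.18, 0.769 and 1.19. Of 37 nuclear genes of respiratory chain complex I and 38 of complexes II to V, none was called in AKI with either gate. Neither was any of 19 transcription factors of the proximal tubule with the gate as defined, and 1 (Lhx1) fell with the stricter gate. Hnf4a, which maintains proximal tubule identity, was at 1.81, 1.71, 1.87, 1.18 and 1.83. A p that misses the threshold does not show that these genes were unchanged.

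**Figure D4:**
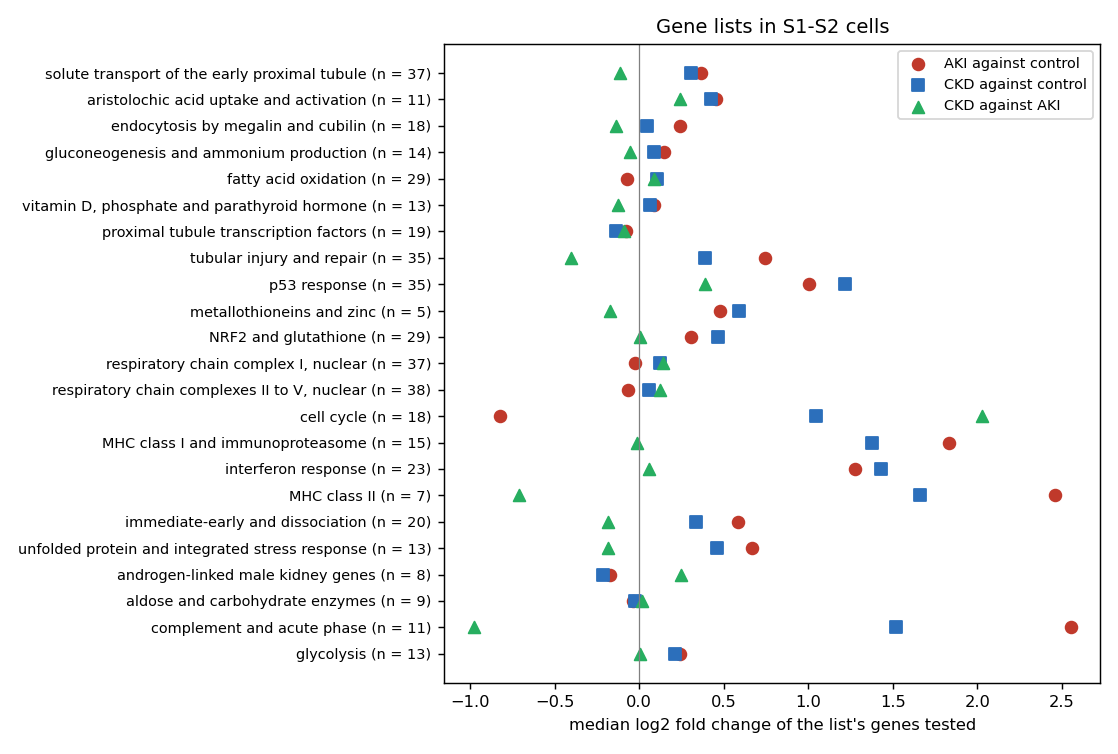
Median log2 fold change of the tested genes of each list in the 3 comparisons between groups of libraries. Complement and acute phase (2.55) and MHC class II (2.46) have the highest medians in AKI against control, and the transport, endocytosis, gluconeogenesis and fatty acid lists lie between -0.07 and 0.37.

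Genes that take up and activate AAI showed no call. Slc22a6 and Slc22a8 encode the organic anion transporters OAT1 and OAT3. Slc22a6 was at 0.498 in the control, 0.516 and 0.767 in AKI, and 1.05 and 1.24 in CKD, with both CKD libraries above the others (CKD against AKI 0.83 ± 0.25, edgeR adjusted p = 0.557). Slc22a8 was at 1.54, 0.994, 0.499, 0.986 and 1.27 (AKI against control -0.98 ± 0.37, adjusted p = 0.319). Nqo1, the reductase known to activate AAI, was at 0.0671 in the control and between 0.176 and 0.231 in the other 4 libraries. Its AKI difference of 1.61 ± 0.32 did not pass (edgeR adjusted p = 0.119) and did with the stricter gate (1.59 ± 0.33, adjusted p = 0.0183). None of 11 tested genes of uptake and activation was called in any comparison between groups with the gate as defined.

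CKD was then set against the same control library, so this comparison and the last are not independent. In CKD 8 genes rose (0.0676% of 11833) and 1 fell (0.00845%), 0.0761% in all. None of these 9 was called with DESeq2's size factors and 1 was with a limit of 15% mitochondrial UMIs, all 9 in the same direction. The stricter gate gave 388 genes (3.52% of 11009), 258 higher (2.34%) and 130 lower (1.18%). Both CKD libraries were above the control for 26.0% of genes and below it for 43.2%. Without AKI 1 or AKI 2 none was called, and without CKD 1 or CKD 2 the counts were 852 and 2018. Fgg had the largest rise, and 3 of the 8 genes were on the p53 list. Cdkn1a had a log2 fold change of 4.03 ± 0.34 (edgeR adjusted p = 0.0424), Phlda3 4.26 ± 0.39 and Ccng1 2.47 ± 0.26, from the levels given above. In both CKD libraries Cdkn1a was above the 2.04 and 1.31 of T lymphocyte-gated cells. Of 35 tested p53 response genes 3 rose and none fell, with a median of 1.22, and 20 of 34 rose with the stricter gate. Ephx1 rose by 3.34 ± 0.26.

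Cox6b2, an isoform of a cytochrome c oxidase subunit known mainly from testis, was at 0.151 in the control, 0.437 and 0.315 in AKI, and 1.58 and 1.29 in CKD (CKD against control 3.34 ± 0.31, edgeR adjusted p = 0.0424). Ces2e, a carboxylesterase, was at 0.0735, 0.263, 0.227, 0.771 and 0.622 (3.34 ± 0.29). In both genes CKD was highest and AKI lay between CKD and the control. Fgg (4.69 ± 0.48) and C4b (3.09 ± 0.31) were the genes of plasma proteins still called in CKD, both at levels below those of AKI. Inmt was the 1 gene that fell, at 0.0781 and 0.101 in CKD (-3.22 ± 0.33). Spp1 had a difference of 3.06 ± 0.42 that did not pass (edgeR adjusted p = 0.0869) and passed with the stricter gate (3.10 ± 0.44, adjusted p = 0.00496). With that gate 6 of 7 MHC class II genes, 13 of 15 MHC class I genes and 9 of 22 interferon response genes were higher in CKD, and none of these was lower. With it 8 of 9 lymphocyte markers were also higher in CKD and 3 in AKI, and 5 of 10 loop and distal tubule markers were lower in CKD and 7 in AKI. The part of such RNA in the other calls was not tested.

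The last comparison between groups, CKD against AKI, asks what differed after 2 weeks without AAI. None of 11833 genes was called (0%) by edgeR's quasi-likelihood test, 979 had an unadjusted p under 0.05 and DESeq2 called 38. Both CKD libraries were above both AKI libraries for 16.7% of genes and below them for 22.1%. Without CKD 1 the test called 425 genes and without CKD 2 it called 1465. With the stricter gate 38 genes differed (0.345% of 11009), 25 higher in CKD (0.227%) and 13 lower (0.118%). The genes named next were chosen after their values were seen.

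C3 was among the genes lower in CKD with the stricter gate, at 1.29 in the control, 4.58 and 7.32 in AKI, and 1.47 and 1.42 in CKD (-2.04 ± 0.24, edgeR adjusted p = 0.00843). Both CKD libraries were near the control and well below AKI. Pigr fell by 1.48 ± 0.21. Ugt2b37, a glucuronosyltransferase, was at 4.66 and 8.20 in AKI and 1.29 and 1.25 in CKD (-2.34 ± 0.27).

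Genes higher in CKD with the stricter gate included 3 of 34 p53 response genes (Mdm2, Plk2 and Psrc1). Mdm2, the ubiquitin ligase that p53 induces and that limits it, was at 0.378 in the control, 0.710 and 0.716 in AKI, and 1.49 and 2.10 in CKD (1.32 ± 0.20, edgeR adjusted p = 0.0222). With the gate as defined it was at 0.322, 0.879, 0.823, 1.43 and 2.17 (1.09 ± 0.24, adjusted p = 0.55). Both CKD libraries were above both AKI libraries with either gate, and above the 0.729 and 0.598 of T lymphocyte-gated cells. Cox6b2 rose by 1.84 ± 0.26 and Psrc1, a p53 target that acts on the spindle, by 2.42 ± 0.29. Genes of T cells and macrophages were among the others called higher. Trbc2, a T cell receptor chain, was at 0.131 and 0.150 in AKI and 0.809 and 0.353 in CKD, against 8.19 to 12.3 in T lymphocyte-gated cells, and the part of such RNA in the other calls was not tested.

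Levels summed over a library do not say how many cells share a change, so each member was thinned to 1000 UMIs (681, 324, 352, 2412 and 228 members were deep enough). At that depth an Spp1 UMI was found in 50.8% of control members (95% exact interval, 47.0 to 54.6), 97.2% and 99.4% in AKI, and 93.8% and 77.6% in CKD. The shares in T lymphocyte-gated cells were 25.2%, 55.8%, 59.4%, 55.1% and 15.1%. Before thinning the members' shares were 79.4%, 99.3%, 100%, 99.5% and 93.5%. So in AKI nearly every member held Spp1 RNA, and the share stood above that of T lymphocyte-gated cells in every library.

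A Fgg UMI was found in 1.03% of control members (0.414 to 2.11), 18.2% (14.2 to 22.9) and 24.7% (20.3 to 29.6) in AKI, and 9.16% (8.04 to 10.4) and 10.1% (6.50 to 14.8) in CKD. T lymphocyte-gated cells had at most 1.23%. A Cdkn1a UMI was found in 0.734% of control members (0.239 to 1.71), 14.2% (10.6 to 18.5) and 16.2% (12.5 to 20.5) in AKI, and 27.9% (26.1 to 29.7) and 21.5% (16.3 to 27.4) in CKD. For Cdkn1a the shares in T lymphocyte-gated cells were 5.94%, 13.2%, 11.9%, 15.2% and 9.83%. Control members, at 0.734%, were below those cells, AKI members were near them and CKD members above them. How much of the T lymphocyte-gated share was free RNA was not tested. Before thinning, Cdkn1a was found in 3.65%, 37.7%, 51.3%, 55.5% and 53.1% of members and Fgg in 4.30%, 40.5%, 56.8%, 25.6% and 34.6%.

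A Cd74 UMI was found in 13.4%, 66.7%, 79.5%, 62.6% and 36.8% of thinned members, against 9.18%, 27.3%, 33.6%, 29.7% and 18.4% of T lymphocyte-gated cells. Before thinning the members' shares were 27.2%, 83.0%, 94.0%, 81.8% and 65.4%. Among members with an Spp1 UMI, 44.1% in CKD 2 and 64.5% in CKD 1 held Cd74, against 11.8% and 34.0% of members without one. For Cdkn1a the shares went the other way, 19.2% and 27.5% of members with Spp1 and 29.4% and 34.7% of those without. In the control the shares with and without Spp1 were 17.6% and 8.96% for Cd74, and 0.578% and 0.896% for Cdkn1a. Very few AKI members lacked Spp1. In AKI 1 and AKI 2 Cd74 was found in 67.3% and 79.4% with Spp1 and 44.4% and 100% without. Cdkn1a was found there in 14.3% and 16.3% with Spp1 and 11.1% and 0% without. These counts are over cells of single libraries and were not tested.

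S1-S2 cells were also set against cells with at least 3 Havcr1 UMIs under the same limits on leukocyte and distal genes. Such cells numbered 0 in the control (which allows a share of up to 0.0327% of its kept barcodes), 18 and 36 in the AKI libraries, and 27 and 7 in CKD. Only AKI 2 and CKD 1 had at least 20, so the test pairs 2 kinds of cell in 2 libraries and has 1 residual degree of freedom per gene. The Havcr1-positive cells were deeper, with medians of 31252 and 7810 UMIs against 5932 and 2831 in the members. Of 10913 genes 1023 differed (9.37%), and 493 were higher in S1-S2 cells (4.52%) and 530 were lower (4.86%). DESeq2 called 260, thinning to 1000 UMIs left 109 of 2919 tested, and without the block for library 6 were called. Havcr1 was part of the choice, so it is not a result.

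Among the genes named by the rule, Spp2, G6pc, Gatm and Miox were higher in S1-S2 cells. Gatm and Miox are on the proximal tubule marker list. Only the S1-S2 cells were chosen for proximal tubule markers, so higher levels of such genes in them are partly set by the choice of cells. Spp2, a secreted phosphoprotein, was at 3.43 and 4.83 UMIs per 10000 in S1-S2 cells of AKI 2 and CKD 1, and at 0.326 and 1.66 in Havcr1-positive cells (log2 fold change 2.57 ± 0.25, edgeR adjusted p = 1.22e-09). G6pc was at 1.64 and 1.23 against 0.335 and 0.314 (2.36 ± 0.24). Gatm, which starts creatine synthesis, was at 8.82 and 9.10 against 2.70 and 3.54 (1.69 ± 0.17), and Miox at 4.96 and 7.65 against 1.60 and 3.05 (1.63 ± 0.17). Dnase1, a secreted nuclease, and Iigp1, an interferon-inducible GTPase, were higher by 1.86 ± 0.24 and 2.21 ± 0.26. The rule itself required the same direction in both libraries. Of these genes only Iigp1 went the other way in AKI 1 (0.866 against 0.895), a library left out for its few Havcr1-positive cells.

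S100a6, Krt20, Sprr1a, Ankrd1 and Plat were lower in S1-S2 cells. S100a6, a calcium-binding protein, was at 0.287 and 2.40 in S1-S2 cells against 24.98 and 55.1 in Havcr1-positive cells (-5.27 ± 0.25, edgeR adjusted p = 3.02e-18). Krt20, a keratin, was at 0.0606 and 0.0369 against 1.30 and 0.457 (-3.94 ± 0.33). Sprr1a (-4.83 ± 0.36), a cornified envelope protein, Ankrd1 (-3.86 ± 0.21), a target of YAP, and Plat (-3.55 ± 0.29), the tissue plasminogen activator, were lower too. Kap was lower in S1-S2 cells, at 0.00782 and 0.0336 against 0.118 and 2.74.

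Genes that rose in AKI S1-S2 cells were not all set apart from Havcr1-positive cells. Cd74 was at 33.6 and 16.6 against 29.1 and 22.3 (0.03 ± 0.17, edgeR adjusted p = 0.954), and Fgg at 4.44 and 1.83 against 2.75 and 2.03 (0.49 ± 0.19, adjusted p = 0.106). AKI 1 and CKD 2 had too few Havcr1-positive cells for the test. There Cd74 was at 24.3 and 12.9 in S1-S2 cells against 15.9 and 0.611, and Fgg at 3.02 and 2.69 against 0.425 and 0.389. Spp1 was at 231 and 110 against 340 and 188, a difference of -0.53 ± 0.18 that did not pass (adjusted p = 0.0503). Cdkn1a was lower in S1-S2 cells (-1.02 ± 0.19, edgeR adjusted p = 0.000187), as was Vcam1 (-2.004 ± 0.23).

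**Figure D5:**
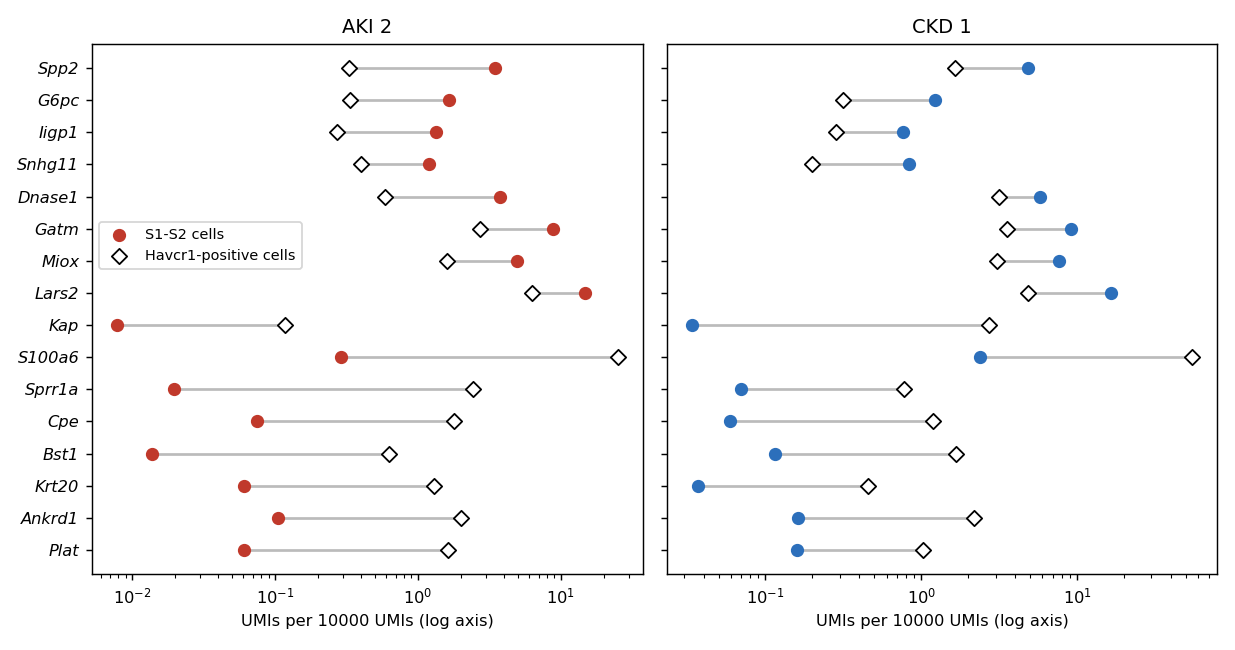
Levels (UMIs per 10000 UMIs, log axis) of the 16 genes named by the rule in S1-S2 cells (filled) and Havcr1-positive cells (open diamonds) of AKI 2 and CKD 1. By the rule's own requirement, the upper 8 genes are higher in S1-S2 cells of both libraries and the lower 8 are higher in Havcr1-positive cells. S100a6 is at 24.98 and 55.1 in the latter.

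S1-S2 cells were last set against thick ascending limb cells of the same libraries, gated on at least 3 UMIs of the salt cotransporter gene Slc12a1 (593, 144, 78, 540 and 70 cells), a comparison added after seeing the data. An interaction term asked whether a gene changed differently in the 2 kinds of cell. AKI against control differed for 40 of 12578 genes (0.318%), CKD against control for 6 (0.0477%) and CKD against AKI for 4 (0.0318%). For AKI against control the change was more positive in S1-S2 cells for 11 genes (0.0875%) and more negative for 29 (0.231%). Tested alone, thick ascending limb cells gave 513 of 10326 genes (4.97%) for AKI against control. Gbp2 was between 0.101 and 0.197 in thick ascending limb cells of all libraries, while its AKI level in S1-S2 cells was 0.688 and 1.09, a difference of the log2 fold changes of 2.92. The whole interferon response list was higher in AKI in both kinds of cell. It summed to 3.64 in the control and 9.51 and 7.13 in AKI in thick ascending limb cells, and to 4.19, 10.2 and 10.9 in S1-S2 cells. Cox6b2 was at 0.194 and 0.153 in thick ascending limb cells of CKD, against 1.58 and 1.29 in S1-S2 cells, a difference of 3.50 for CKD against control. Spp1 was also high in thick ascending limb cells, at 28.4 UMIs per 10000 in the control and 268 and 297 in AKI.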

How the data were processed

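Count matrices of 5 kidney libraries were used as deposited. Per the labels and the study's methods, the authors made these UMI counts per gene and barcode with Cell Ranger 7.2.0 (STAR, GRCm39), while headers of the AKI and CKD matrices name another Cell Ranger release. The control matrix has no such header and its feature list names mm10, with the same gene identifiers as the others. No ambient RNA correction or doublet caller was run here, so doublets and free RNA remain. T lymphocyte-gated cells (at least 2 Ptprc and 2 Cd3 UMIs) gave the level of free RNA. For genes that those cells express, or hold through doublets, that level need not be free RNA. The members and gene lists were chosen with earlier results of these data known.

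UMIs were summed per library over members and given per 10000 UMIs. Genes were tested with edgeR 4.0.16 (TMM, glmQLFit and glmQLFTest, 1 term per group, residual df of 2) in R 4.3.3, called at a Benjamini-Hochberg adjusted p under 0.05. A gene had to reach the CPM of 10 UMIs in the median library in at least 2 libraries, and 15 UMIs in all. The 10 gate genes and the mitochondrial genes were described only. S1-S2 and Havcr1-positive cells were compared with library as a block. Each SE given after ± was worked back from edgeR's test. It is the size of the log2 fold change divided by the square root of the test's F statistic. DESeq2 1.42.0 and the gates in the closing section were alternatives, and the scripts were tested on simulated data.

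By rule, up to 12 genes in each direction (8 for Havcr1-positive cells) were named among those called whose groups did not overlap, with at least 1 UMI per 10000 and 2 times the T lymphocyte-gated level, leaving out gate and mitochondrial genes and symbols of the Gm and Rik kinds. Members of the lists were named beside their list's count, and other genes were named after their values were seen. Results on some genes are not reported here.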

Additional observations from a re-analysis of the deposited data

Results flagged for a closer look

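An interaction term asked which genes changed differently in S1-S2 and thick ascending limb cells. It called 40 genes for AKI against control, 6 for CKD against control and 4 for CKD against AKI (adjusted p, edgeR's quasi-likelihood test). The genes below were chosen after their values were seen.

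Aebp1, a carboxypeptidase-like matrix protein, differed in direction. In S1-S2 cells it was at 0.350 UMIs per 10000 in the control and 1.08 and 1.33 in AKI, and in thick ascending limb cells at 3.23 and at 0.847 and 0.735. The difference of the log2 fold changes was 3.93 for AKI against control, and -2.03 for CKD against AKI. Gbp2 gave 2.92 for AKI against control and Cox6b2 3.50 for CKD against control, both higher in S1-S2 cells.

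Other genes were raised more in thick ascending limb cells. The stress chaperone Cryab gave -2.90 for AKI against control, Tmem252 -4.30 and Dcdc2a -2.99. Hbegf, an epidermal growth factor receptor ligand, gave -2.29, with 2.44, 3.47, 2.90, 2.51 and 2.10 UMIs per 10000 in S1-S2 cells and 1.73, 12.4, 12.1, 4.80 and 5.34 in thick ascending limb cells. For CKD against control Tmem252 gave -4.54 and Bcam, a laminin receptor, -2.55. For CKD against AKI Anxa1, an annexin, gave 4.78, but in S1-S2 cells of CKD 1 it was at 0.332, below the 0.518 of T lymphocyte-gated cells, and at 0.0504 in CKD 2.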

How the results depend on the processing

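Counts of called genes moved with the processing. They are given in the order CKD against AKI, AKI against control and CKD against control, where the counts reported are 0, 38 and 9. DESeq2's size factors gave 0, 23 and 0, DESeq2's Wald test 38, 232 and 216, and no filter on low counts 575, 996 and 828. A limit of 15% mitochondrial UMIs gave 0, 19 and 1, and no limit 0, 136 and 43. The stricter marker gate gave 38, 660 and 388, and requiring 0 UMIs of the genes of other cells 10, 176 and 56. Thinning to 1000 UMIs gave 3, 28 and 49, leaving out shared barcodes 0, 27 and 5, and a minimum of 2000 UMIs per cell, added after seeing the data, 0, 62 and 12. Leaving out 1 library gave 0 to 1465, 0 to 2002 and 0 to 2018. All 38 AKI genes kept their sign wherever tested. For S1-S2 against Havcr1-positive cells (1023 genes), DESeq2 gave 260, no block for library 6, thinning 109, and a threshold of 2 Havcr1 UMIs, also added after seeing the data, 1603. A threshold of 6 Havcr1 UMIs and leaving out a library could not be fitted. The Slc22a6 difference between AKI and control turned to -0.52 with no mitochondrial limit and -0.17 after thinning. The causes were not tested. The share difference between CKD and AKI ran from -1.06 to 8.70 points when 1 library was left out. For 27 genes called in AKI against control, 282 values over the alternative settings kept direction and call and 92 kept the direction but lost the call. For 9 genes called in CKD against control these numbers were 84 and 41. For 19 genes called in the Havcr1-positive comparison they were 90 and 21. Named genes that were not called are left out of these numbers.

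AKI and CKD libraries share replicate numbers. A replicate block on these 4 libraries called 1 gene, and none was called without it. The numbers were not taken to pair the libraries, since the deviations of AKI 1 and CKD 1 correlated at only 0.0429. The single control library, 0 to 36 Havcr1-positive cells in a library, and free RNA limit what these libraries can show.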

Other observations

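Lists not described above held few calls with the gate as defined. None of 20 tested immediate-early and dissociation genes, 13 of the unfolded protein response, 29 of NRF2 and glutathione, 13 of glycolysis, 13 of vitamin D and phosphate handling, 9 of aldose and carbohydrate metabolism or 5 metallothionein and zinc genes was called in any comparison between groups by edgeR's quasi-likelihood test. With the stricter gate 4 of 19 immediate-early genes were higher in AKI than in the control (Junb, Egr1, Ier3 and Zfp36). Of 29 NRF2 and glutathione genes it called Gclc and Anpep higher and Dpep1 lower in AKI, and Gclc, Txnrd1, Gstm1 and Anpep higher in CKD. Its other calls in these lists were in AKI, where Cyp24a1 (vitamin D) and Pfkp (glycolysis) were higher and Hk1 (glycolysis) and Miox (aldose metabolism) lower. Summed immediate-early UMIs per 10000, which tissue digestion is known to raise, were 91.5 in the control, 135 and 109 in AKI, and 124 and 89.4 in CKD, so the groups overlapped.

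Cell cycle genes were higher in CKD than in AKI by a median log2 fold change of 2.03 over 18 tested, none of them called. Their summed level was 11.7 UMIs per 10000 in CKD 1, 5.45 in CKD 2, 4.54 and 4.18 in AKI, and 6.78 in the control. Top2a, a topoisomerase of dividing cells, was at 0.303 in CKD 1 members and 0.0589 in CKD 2 members, against 2.53 and 2.21 in T lymphocyte-gated cells. CKD 1 is also the library whose members held the most lymphocyte marker RNA, and the part of that RNA in the cell cycle genes was not tested.

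Gpx3, the most abundant of the proximal tubule markers outside the gate, did not pass in AKI against control (1.02 ± 0.33, edgeR adjusted p = 0.255).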
